A study of Mus musculus with 6 samples.

Results

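The genes described here are the very long genes of differentiated mouse muscle cells: 73 expressed genes with a genomic span of 500 kb or more, out of 12461 genes tested. They were chosen by annotated span in GRCm38 and by measured level, a TPM (transcript level scaled to the same total in each library) of at least 1 in at least 3 of the 6 libraries. Of 236 annotated genes of that span, 217 were in the deposited values and 85 were past the TPM floor, of which 12 were set aside by name (Dmd, Fgf13, Esrrg, Sgcd, Ryr3, Immp2l, Cdh13, Rbfox1, Celf2, Macrod2, Sox6 and Lama2). Utrn, also set aside by name, spans 487.7 kb and would not have entered.

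The study compared polyA RNA of SFPQ_KO cultures (n = 3) with that of Cont cultures (n = 3). The SFPQ_KO cultures came from mice labelled SfpqSM-KO, and the sources used here do not say which promoter drives the deletion. Both groups were primary myoblasts, muscle precursor cells, from skeletal muscle of male mice aged 1 month, grown with basic fibroblast growth factor, then moved to 2% horse serum and sampled after 4 days, when such cells stop dividing and form myotubes. The series names 3 mice per genotype, but no label ties a library to its own mouse, so p-values reflect sample-to-sample spread alone, part of which could be technical.

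RNA polymerase II needs hours to cross a gene of this size, nearly all of which is intron, so its messenger RNA depends on polymerase staying on the template and on accurate removal of very long introns. Sfpq is a nuclear protein that binds RNA and DNA and takes part in transcription and splicing, and the question of the study is whether long genes in particular depend on it in muscle. Genes of this length are best known from neurons, where many encode adhesion, synaptic and channel proteins. In human cells some of them, such as FHIT and WWOX, lie at common fragile sites, stretches that break when replication is slowed.

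Sfpq itself was at 18.3, 19.3 and 14.1 TPM in the SFPQ_KO libraries and at 48.6, 60.5 and 49.9 TPM in the Cont libraries (log2 difference −1.57, SE 0.15, limma adjusted p = 0.0531), and the 2 groups did not overlap. Between 12216 and 12484 genes per library reached a TPM of 1, and the read depth behind a TPM value is unknown. Markers of differentiated muscle (10 of 10 in the files) summed to 63027 to 65336 TPM in SFPQ_KO and 55228 to 56025 TPM in Cont. Myoblast markers (3 of 3) summed to 597 to 648 and 329 to 671 TPM, fibroblast markers (7 of 7) to 153 to 214 and 196 to 288 TPM, and smooth muscle and pericyte markers (4 of 4) to 632 to 845 and 507 to 1178 TPM, nearly all of it Acta2, in SFPQ_KO and Cont. Col3a1 made up most of the fibroblast sum. Col1a1, another collagen gene, was at 11.1, 24.9 and 11.6 TPM in SFPQ_KO and at 30.3, 35.9 and 75.9 TPM in Cont, and Pdgfra, a growth factor receptor of fibroblasts, at 0.527, 0.710 and 0.588 TPM in SFPQ_KO and at 1.41, 0.719 and 1.08 TPM in Cont. Both were lower in every SFPQ_KO library than in every Cont library, as was 1 of the 4 leukocyte markers, Csf1r, below 0.1 TPM in all 6. Of the 10 muscle markers, 3 (Acta1, Des and Tnnc1) were higher in every SFPQ_KO library. Acta1, the largest part of the muscle sum, was at 29919, 34413 and 28195 TPM in SFPQ_KO and 22816, 25651 and 24810 TPM in Cont. The other muscle markers overlapped, and not all leaned higher in SFPQ_KO. Myh8 was at 1297, 2172 and 1934 TPM in SFPQ_KO and 2823, 2102 and 2624 TPM in Cont. Tnnt3 was at 6368, 5784 and 6732 TPM in SFPQ_KO and 9531, 6149 and 7126 TPM in Cont. Lum, Tcf21 and Myh11 were below 0.1 TPM in all 6 libraries. The defining neuronal markers Snap25, Syt1 and Rbfox3 were below 0.1 TPM in all 6, and the neuron list (4 of 4) summed to 1.09 to 1.56 TPM in SFPQ_KO and 0.0478 to 3.00 TPM in Cont. Schwann cell, leukocyte, endothelial, adipocyte and keratinocyte lists each summed to less than 1.5 TPM in all libraries. The part of these markers in the differences below was not tested, and in bulk RNA fewer cells of a type and less RNA per cell cannot be told apart.

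Very long genes leaned lower in SFPQ_KO, but not uniformly. For 29 of the 73 (39.7%) all 3 SFPQ_KO libraries lay below all 3 Cont libraries, against 15.3% of all genes tested. For 1 (1.37%), Edil3, all SFPQ_KO libraries lay above, against 4.27% of all genes tested, and the groups overlapped for the other 43. The median log2(TPM + 1) difference, SFPQ_KO minus Cont, was −0.28 over the 73 genes (quartiles −0.50 and −0.01) and −0.07 over all genes tested, with 56 of the 73 (76.7%) below 0, against 8038 of 12461 (64.5%) of all genes tested.

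No single gene of the set passed the genome-wide test, in which limma called 0.0% of all genes tested after Benjamini-Hochberg adjustment. The smallest adjusted p in the set was 0.0900. At an unadjusted p under 0.05, 25 of the 73 were lower in SFPQ_KO (9.62% of all genes tested) and 1 was higher (2.68% of all genes tested). The TPM floor reads the same libraries: 59 of the 73 were at 1 TPM or more in all 6 libraries, with 23 lower, 1 higher and a median of −0.27. There were 4 genes, Nckap5, Fhit and Gpc6 among them, that passed it through Cont alone, so a lower SFPQ_KO value was built into their selection.

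**Figure D1:**
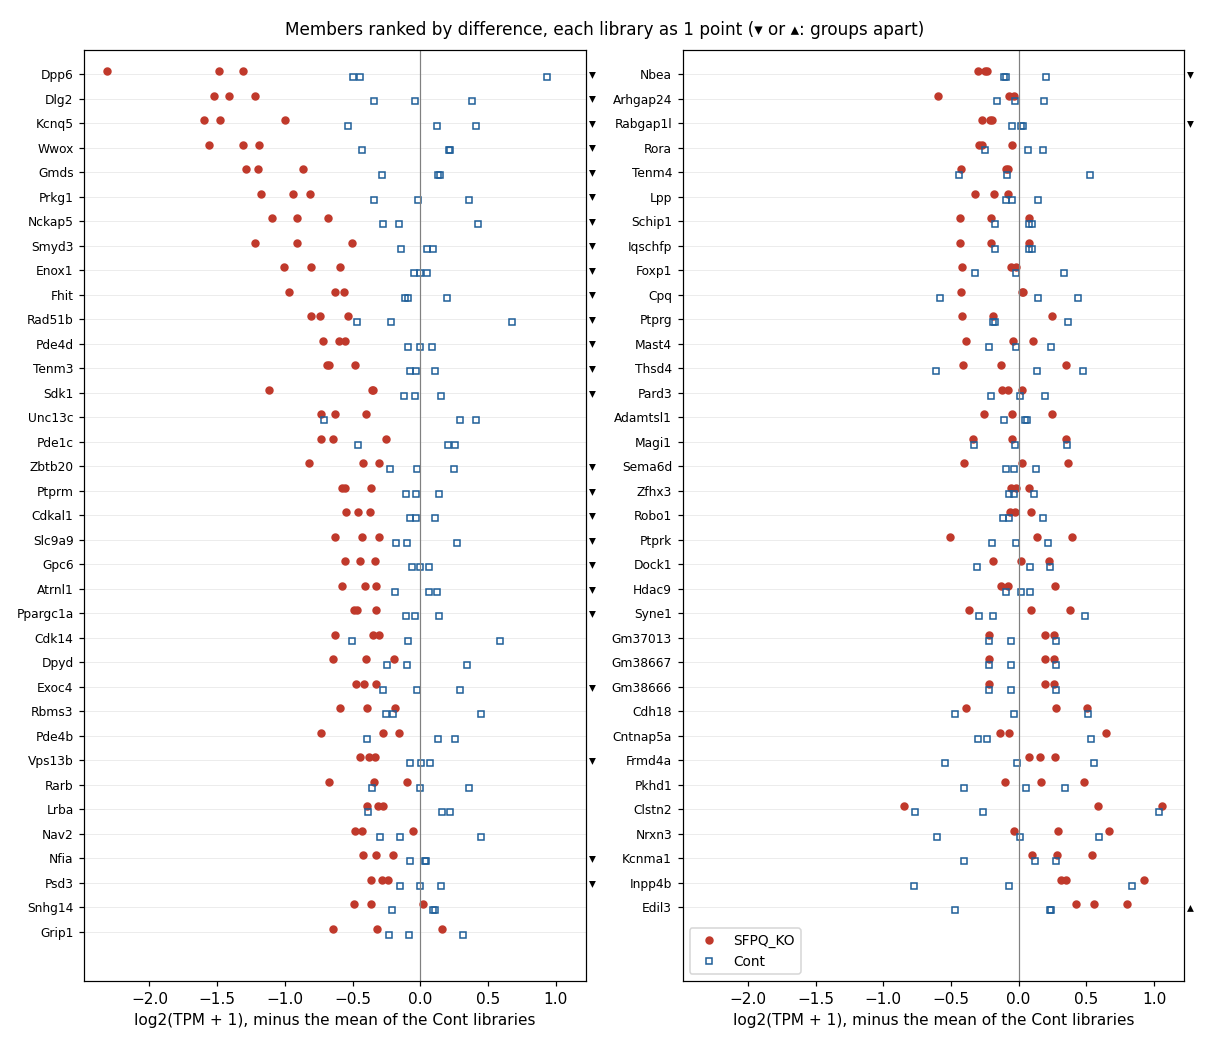
Each row is 1 of 71 of the 73 genes, ranked by its difference, with each library's log2(TPM + 1) minus the mean of the Cont libraries (SFPQ_KO as filled circles, Cont as open squares). Downward marks at the right edge flag genes with all SFPQ_KO libraries below all Cont libraries, which fill most of the upper rows, and the upward mark flags Edil3.

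The annotated span of a gene covers all its forms, and the transcript deposited for it can start far inside. The deposited values hold 1 transcript per gene for all but 14 genes, and 66 of the 73 deposited transcripts could be placed in GENCODE. Promoter windows (RefSeq, GRCm38.p6, 250 bases before to 50 bases after a start) were matched for 58 of the 73 genes, and for 44 a window lay within 1000 bases of the deposited transcript's start. Windows are shown for 5 genes, to set starts at the outer edge of a gene beside starts far inside it. Prkg1 (chr19:31764984-31765283, minus strand) and Pde4d (chr13:108653927-108654226, plus strand) start at the edge, and their groups did not overlap. Tenm3 (chr8:48674641-48674940, minus strand) starts 848 kb inside its locus and was also lower in every SFPQ_KO library. Robo1 (chr16:72662899-72663198, plus strand) starts 636 kb inside and Frmd4a (chr2:4400726-4401025, plus strand) 383 kb inside, and the groups of both overlapped. Edge and inside are by the RefSeq span of the gene, and GENCODE gives other spans for 3 of these genes. Tenm3, Robo1 and Pde4d span 616270, 737790 and 1503514 bases there, against 1297160, 1019974 and 1301793 bases in RefSeq. The 5 genes shown do not stand for the set. Dock1 and Cdk14 also start at the edge, with overlapping groups, and Dlg2 starts 615 kb inside and was apart and lower. Capitals mark matches, on either strand, to the letters of the TATA box (TATAAA), of the GC box (GGGCGG) and of a form of the E-box that myogenic factors bind (CAGCTG).
Prkg1: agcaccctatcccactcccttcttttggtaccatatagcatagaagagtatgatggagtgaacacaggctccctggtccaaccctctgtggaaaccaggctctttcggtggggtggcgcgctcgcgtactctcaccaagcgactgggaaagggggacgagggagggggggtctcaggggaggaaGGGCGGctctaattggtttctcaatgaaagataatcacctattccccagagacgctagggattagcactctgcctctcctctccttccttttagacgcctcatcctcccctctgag
Pde4d: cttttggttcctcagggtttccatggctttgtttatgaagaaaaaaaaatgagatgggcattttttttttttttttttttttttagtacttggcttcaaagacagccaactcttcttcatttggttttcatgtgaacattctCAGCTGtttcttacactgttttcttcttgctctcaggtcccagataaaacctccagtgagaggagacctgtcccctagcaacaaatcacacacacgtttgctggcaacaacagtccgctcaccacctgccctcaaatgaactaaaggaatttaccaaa
Tenm3: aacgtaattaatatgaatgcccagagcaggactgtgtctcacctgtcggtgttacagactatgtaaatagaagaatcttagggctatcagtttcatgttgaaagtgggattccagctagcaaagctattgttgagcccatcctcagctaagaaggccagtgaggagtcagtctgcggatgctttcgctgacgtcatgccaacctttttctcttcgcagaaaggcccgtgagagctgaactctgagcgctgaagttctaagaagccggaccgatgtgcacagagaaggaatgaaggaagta
Robo1: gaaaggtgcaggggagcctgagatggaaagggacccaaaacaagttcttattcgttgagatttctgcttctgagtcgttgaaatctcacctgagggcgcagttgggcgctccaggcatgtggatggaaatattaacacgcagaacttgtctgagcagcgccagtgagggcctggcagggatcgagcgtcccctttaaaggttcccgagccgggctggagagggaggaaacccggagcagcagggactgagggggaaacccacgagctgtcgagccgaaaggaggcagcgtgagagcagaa
Frmd4a: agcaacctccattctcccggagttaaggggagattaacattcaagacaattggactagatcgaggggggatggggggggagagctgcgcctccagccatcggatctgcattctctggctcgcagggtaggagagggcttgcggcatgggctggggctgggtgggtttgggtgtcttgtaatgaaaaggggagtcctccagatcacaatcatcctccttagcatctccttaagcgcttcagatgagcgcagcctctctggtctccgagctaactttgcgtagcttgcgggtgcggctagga

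Over the 44 matched windows, TATAAA was found in 2 (4.55%, against 13.6% of all 32851 windows of the same length), GGGCGG in 19 (43.2%, against 35.7%) and CAGCTG in 7 (15.9%, against 16.3%). A CAGCTG match can share its last base with a GGGCGG match. Of the 19 windows of genes with groups apart and lower, GGGCGG was in 9, and of the 25 windows of genes with overlapping groups it was in 10. In the windows shown, Prkg1 holds GGGCGG and Pde4d holds CAGCTG. For Tenm3, Robo1 and Frmd4a no match says only that these letters are not in the window.

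The largest differences among signalling and channel genes were in Dpp6, Kcnq5, Prkg1 and Pde4d. Dpp6 (chromosome 5, 26817357 to 27727500, 910 kb), an accessory subunit of voltage-gated potassium channels, was at 1.81, 0.403 and 1.48 TPM in SFPQ_KO and at 3.95, 4.13 and 12.3 TPM in Cont. Its log2 difference was −1.70 (SE 0.45, adjusted p = 0.257) and −1.24 without Cont replicate 3, the high control library. Kcnq5 (chromosome 1, 21398399 to 21962650), a voltage-gated potassium channel, was at 3.00, 5.09 and 3.36 TPM in SFPQ_KO and at 15.2, 7.37 and 12.2 TPM in Cont (−1.36, SE 0.28, adjusted p = 0.164). The groups of both genes were apart, with a wide spread within Cont.

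Prkg1 (chromosome 19, 30564487 to 31765268, 1201 kb), the cGMP-dependent protein kinase, was at 8.06, 7.29 and 6.07 TPM in SFPQ_KO and at 11.6, 19.5 and 14.7 TPM in Cont (−0.98, SE 0.20, adjusted p = 0.163). Pde4d (chromosome 13, 108654177 to 109955969, 1302 kb), a cAMP phosphodiesterase, was at 5.34, 5.53 and 4.83 TPM in SFPQ_KO and at 8.02, 9.21 and 8.59 TPM in Cont (−0.62, SE 0.11, adjusted p = 0.141). Pde4d was tight within both groups. The list of kinases, phosphodiesterases and lipid signalling genes held 9, Dpp6 among them. Of these 9, 3 were apart and lower (33.3%, against 15.3% of all genes tested) and 6 overlapped (median −0.43). Pde4b, a relative of Pde4d (28.9, 19.1 and 26.6 TPM in SFPQ_KO, 38.9, 24.4 and 35.5 TPM in Cont), and the GTPase-activating protein Arhgap24 (47.1, 45.8 and 31.5 TPM in SFPQ_KO, 43.1, 54.9 and 47.3 TPM in Cont) were among those that overlapped. Inpp4b, a phosphoinositide phosphatase, went the other way without separating: 30.0, 19.3 and 19.9 TPM in SFPQ_KO and 8.60, 28.2 and 14.6 TPM in Cont. Its difference of 0.53 (SE 0.40) was 0.14 without Cont replicate 1. Of 3 channels and transporters, Kcnq5 and the endosomal sodium-proton exchanger Slc9a9 (9.25, 10.2 and 7.91 TPM in SFPQ_KO, 11.9, 15.7 and 11.2 TPM in Cont) were apart and lower. The calcium-activated potassium channel Kcnma1 overlapped, and its difference of 0.31 was 0.11 without Cont replicate 1.

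Enzymes gave the highest share of separated genes among the role lists, 5 of 7, with a median of −0.72. All 5 were lower (71.4%, against 15.3% of all genes tested). Wwox (chromosome 8, 114439635 to 115352712), an oxidoreductase with WW domains, was at 5.81, 6.37 and 4.72 TPM in SFPQ_KO and at 18.6, 11.5 and 18.5 TPM in Cont (−1.35, SE 0.21, adjusted p = 0.108). Gmds (chromosome 13, 31819583 to 32338762), which makes the first step from GDP-mannose to GDP-fucose, was at 3.60, 5.17 and 3.89 TPM in SFPQ_KO and at 11.3, 8.26 and 11.4 TPM in Cont (−1.12, SE 0.17, adjusted p = 0.108). In both genes each SFPQ_KO library was clearly below the lowest Cont library.

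Fhit (chromosome 14, 9550092 to 11162061), a dinucleoside triphosphate hydrolase, was at 0.610, 0.682 and 0.270 TPM in SFPQ_KO and at 1.86, 1.34 and 1.30 TPM in Cont (−0.72, SE 0.17, adjusted p = 0.230). Fhit was low in both groups, near the TPM floor. Dpyd, the first enzyme of pyrimidine breakdown, overlapped, as did Adamtsl1, a secreted protein of the ADAMTS-like family listed with the enzymes though it lacks a protease domain (12.4, 9.94 and 8.47 TPM in SFPQ_KO, 9.51, 10.7 and 10.8 TPM in Cont, difference −0.02).

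Among scaffolds and cytoskeletal genes 2 of 9 were apart and lower (22.2%, against 15.3% of all genes tested), and the median was −0.06. Dlg2 (chromosome 7, 90476188 to 92449246, 1973 kb), a membrane-associated guanylate kinase scaffold and the longest gene of the set, was at 1.6005, 1.99 and 1.41 TPM in SFPQ_KO and at 4.47, 8.05 and 5.75 TPM in Cont (−1.39, SE 0.21, adjusted p = 0.106). Psd3, an exchange factor for Arf6, was apart with a difference of −0.29. Most of this group overlapped.

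Pard3, a polarity scaffold of 549 kb, was at 34.5, 31.0 and 32.0 TPM in SFPQ_KO and at 29.3, 39.0 and 34.1 TPM in Cont (−0.06, SE 0.12). Syne1, a nuclear envelope protein that anchors muscle nuclei, was at 9.02, 6.31 and 11.2 TPM in SFPQ_KO and at 6.67, 12.2 and 7.24 TPM in Cont (0.03, SE 0.27). Frmd4a, a FERM-domain scaffold, was at 18.5, 17.0 and 16.1 TPM in SFPQ_KO and at 10.1, 22.8 and 15.0 TPM in Cont (0.17, SE 0.26, and −0.11 without Cont replicate 1). For Pard3, Syne1 and Frmd4a alike, the spread within Cont alone exceeded the difference between groups. Nav2, a microtubule-associated protein, overlapped at 33.8, 25.8 and 24.9 TPM in SFPQ_KO and 31.6, 48.3 and 28.3 TPM in Cont.

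Of 9 adhesion molecules and receptor phosphatases, 3 were apart and lower (33.3%, against 15.3% of all genes tested, median −0.12). The teneurin Tenm3 was at 7.77, 6.59 and 6.69 TPM in SFPQ_KO and at 12.2, 10.99 and 10.6 TPM in Cont (−0.62, SE 0.11, adjusted p = 0.151), and Sdk1, an immunoglobulin-domain adhesion molecule, also separated (−0.61, and −0.35 without SFPQ_KO replicate 3). The receptor phosphatases gave both patterns. Ptprm was at 12.5, 10.6 and 10.8 TPM in SFPQ_KO and at 18.1, 15.1 and 16.0 TPM in Cont (−0.50, SE 0.11, adjusted p = 0.196). Ptprk was at 12.8, 7.79 and 15.4 TPM in SFPQ_KO and at 11.3, 13.5 and 9.90 TPM in Cont (0.01, SE 0.24), and its groups overlapped. The difference between the 2 genes was not tested. Tenm4, Ptprg, Cdh18, Cntnap5a and Nrxn3 overlapped as well, and the neuronal adhesion molecule Nrxn3, at 1612 kb as long as Fhit, had a difference of 0.31 that was 0.0046 without Cont replicate 3.

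Among regulators of gene expression, 5 of 10 transcription and chromatin genes were apart and lower (50.0%, against 15.3% of all genes tested, median −0.34). Smyd3, a lysine methyltransferase, was at 2.34, 4.48 and 3.14 TPM in SFPQ_KO and at 7.31, 6.07 and 7.04 TPM in Cont (−0.88, SE 0.20, adjusted p = 0.192). Ppargc1a, the coactivator PGC-1alpha that drives mitochondrial genes, was at 5.22, 4.56 and 4.63 TPM in SFPQ_KO and at 6.59, 6.27 and 7.61 TPM in Cont (−0.43, SE 0.12, adjusted p = 0.268). Zbtb20, a zinc finger repressor, was at 8.84, 8.05 and 5.86 TPM in SFPQ_KO and at 10.97, 13.4 and 9.38 TPM in Cont (−0.52). Nfia and Rad51b were the others apart. Rad51b, a DNA repair protein, had a difference of −0.69 that was −0.35 without Cont replicate 2. The retinoic acid receptor Rarb, the nuclear receptor Rora, Foxp1, Zfhx3 and the deacetylase Hdac9 overlapped.

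Membrane traffic genes were apart and lower in 4 of 6 cases (66.7%, against 15.3% of all genes tested, median −0.36). Exoc4, a subunit of the exocyst that tethers secretory vesicles, was the most abundant of all separated genes, at 65.2, 68.0 and 72.1 TPM in SFPQ_KO and 89.4, 112 and 75.01 TPM in Cont (−0.41, SE 0.15, adjusted p = 0.360, and −0.26 without Cont replicate 2). Vps13b, Nbea and Rabgap1l were the others apart. Lrba, a relative of Nbea, was at 10.03, 10.3 and 9.41 TPM in SFPQ_KO and at 14.9, 14.3 and 9.47 TPM in Cont, so that Cont replicate 3 was within 0.1 TPM of an SFPQ_KO library. Unc13c, which primes vesicles for release, overlapped. Cdkal1, which modifies transfer RNA, was apart at 9.45, 10.1 and 10.8 TPM in SFPQ_KO and 13.9, 13.5 and 15.4 TPM in Cont (−0.46, SE 0.10, adjusted p = 0.192). The RNA-binding protein Rbms3 overlapped.

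**Figure D2:**
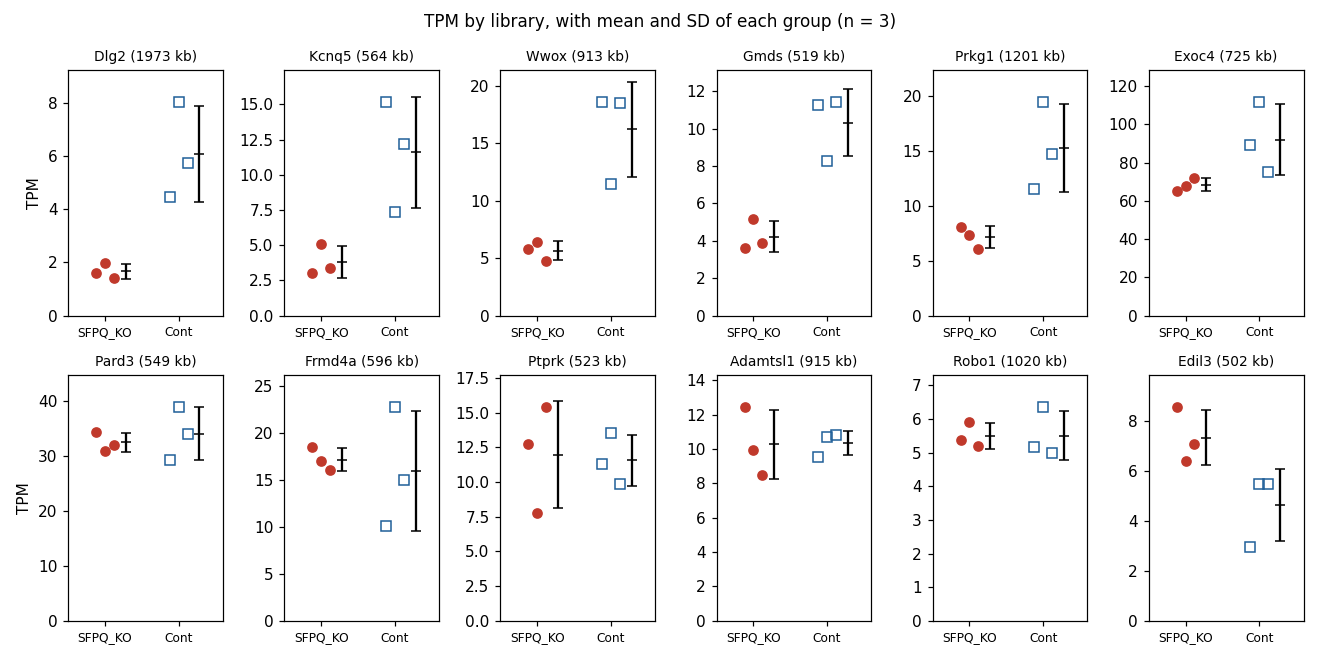
TPM in each library for 6 genes with all SFPQ_KO libraries below all Cont libraries (upper row) and for 6 others (lower row), SFPQ_KO left of Cont, with the mean and SD (n = 3) beside each group. The groups are apart in the upper row and overlap in the lower row, except for Edil3, where all SFPQ_KO libraries lie above all Cont libraries.

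Guidance and matrix genes were near equal apart from Gpc6, a glypican. Sema6d, a transmembrane semaphorin, was at 11.01, 6.03 and 8.45 TPM in SFPQ_KO and at 7.72, 8.10 and 9.16 TPM in Cont (−0.01). Robo1, a receptor for Slit proteins, was at 5.37, 5.91 and 5.20 TPM in SFPQ_KO and at 5.17, 6.36 and 4.99 TPM in Cont (0.00, SE 0.13). Robo1 was among the closest matches between the groups. Thsd4, a matrix protein that binds fibrillin, overlapped at about 1 TPM (0.802, 1.52 and 0.482 TPM in SFPQ_KO, 0.295, 1.74 and 1.16 TPM in Cont).

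Edil3, a secreted integrin ligand of 501.8 kb, was at 8.56, 6.38 and 7.07 TPM in SFPQ_KO and at 2.96, 5.49 and 5.46 TPM in Cont (0.59, SE 0.22, adjusted p = 0.374). Cont replicate 1 was the low library, and without it the difference was 0.36. In the genes outside the role lists, Nckap5 (0.534, 0.791 and 0.347 TPM in SFPQ_KO, 1.38, 2.87 and 1.58 TPM in Cont, −0.89) and Enox1 (2.47, 1.61 and 1.99 TPM in SFPQ_KO, 4.06, 4.43 and 4.22 TPM in Cont, −0.80) were among the genes apart and lower. For Enox1 the controls lay close together. Of the genes not described singly, Atrnl1 was apart and lower (−0.44), and Pde1c, Cdk14, Mast4, Lpp, Magi1, Grip1, Snhg14, Pkhd1 and Clstn2 overlapped.

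Some genes of the set share reads. Gm37013, Gm38666 and Gm38667 are overlapping models of the clustered protocadherin locus on chromosome 18, and their TPM ratios ranged from 0.993 to 1.003 across libraries. Gm38667 was at 84.2, 63.2 and 88.4 TPM in SFPQ_KO and at 70.5, 89.2 and 63.1 TPM in Cont (0.08), so the 3 give 1 observation of overlapping groups. Iqschfp and Schip1 likewise kept a ratio of 0.925 to 0.926. With each shared locus counted once, 29 of 70 were apart and lower. For 13 of 71 placed genes, Dpp6, Prkg1, Vps13b, Nfia and Nbea among those apart and lower, a protein-coding gene lies on the opposite strand, and the sources used here do not say whether the counting used strand.

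The span of the deposited transcript differed from that of the gene. It was 500 kb or more for 50 genes, of which 25 (50.0%) were apart and lower and 1 apart and higher (median −0.38). It was shorter for 16, of which 3 (Tenm3, Ppargc1a and Nfia) were apart and lower and 13 overlapped (median −0.25). These 3 are 18.8% of the 16, close to the 15.3% of all genes tested that were apart and lower. The deposited form of Sema6d covers 57.2 kb of its 577.8 kb locus, that of Hdac9 157 kb of 869.5 kb, that of Frmd4a 213 kb, that of Zfhx3 247 kb and that of Robo1 383 kb, and the groups of these 5 genes overlapped. Ppargc1a, with a deposited form of 99.7 kb, had groups apart. Unc13c and Pde1c, with deposited forms of 453 and 293 kb, overlapped with differences of −0.59 and −0.54. Differences were below 0 for 11 of the 16 and 41 of the 50, against 64.5% of all genes tested. The sources used here do not say which forms contributed reads to each value, and the difference between the 50 and the 16 was not tested.

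**Figure D3:**
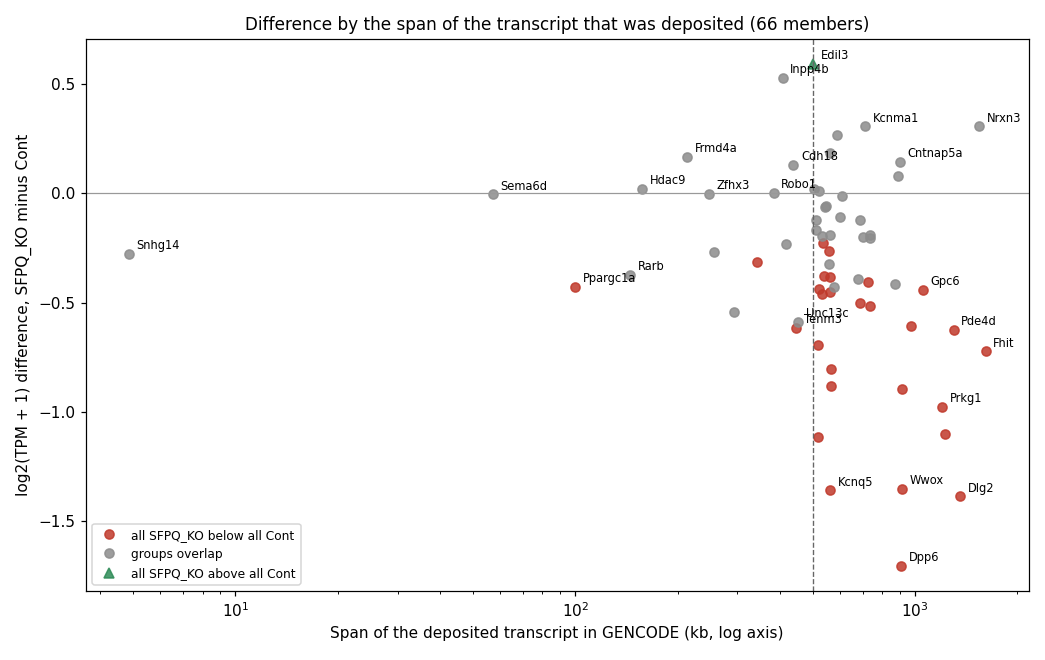
Each point is 1 of the 66 genes whose deposited transcript was placed: its span in kb on a log axis against its log2(TPM + 1) difference, SFPQ_KO minus Cont, with the dashed line at 500 kb. Of the 16 genes left of the line 3 are apart and lower, against 25 of the 50 at or right of it, where all differences below −0.7 lie. The share apart and lower over all genes tested is 15.3%.

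Within the deposited forms, the longest intron gave a similar picture. With a longest intron of 200 kb or more, 13 of 23 genes were apart and lower (median −0.61), and with a shorter one 15 of 43 (median −0.27). These are 56.5% and 34.9%, against 15.3% of all genes tested. The deposited Fhit form places 212 codons in 1612 kb, so that its exons make up 0.0679% of its span. In Wwox the exons are 0.246% and in Pde4d 0.197%. Across genes the rank correlation of the difference was −0.33 with the span of the deposited form and −0.29 with the longest intron (66 genes each). It was 0.32 with the number of codons (65 genes) and 0.14 with the number of exons (66 genes) of the deposited form. With the span of the gene it was −0.13 and with mean TPM 0.13 (73 genes each). These genes share libraries, so the correlations are descriptions.

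By span of the gene the share apart and lower was 13 of 32 at 500 to 600 kb (median −0.28), 5 of 23 at 600 to 900 kb (median −0.20) and 11 of 18 at 900 kb or more (median −0.61). It did not increase step by step, and over all genes tested it was 15.3%. Expressed genes of 300 to 500 kb gave 64 of 148 (43.2%, median −0.24) and those of 200 to 300 kb gave 66 of 251 (26.3%, median −0.14). The genes just inside the span limit were Edil3 (501.8 kb, difference 0.59), Dock1 (503.0 kb, 0.02) and Cpq (511.4 kb, −0.12, and 0.10 without Cont replicate 2), and just outside it Ank3 (494.0 kb, −0.33), Prkce (490.1 kb, −0.12) and Dennd1a (488.4 kb, −0.38). At the TPM floor the third highest library decides: it was at 1.03 TPM for Gpc6 and Zfhx3 and 1.09 TPM for Tenm4, just inside, and at 0.928 TPM for Camta1, 0.882 TPM for Diaph2 and 0.852 TPM for Kalrn, just outside. With the 12 genes set aside by name put back, 35 of 85 were apart and lower (median −0.32).

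**Figure D4:**
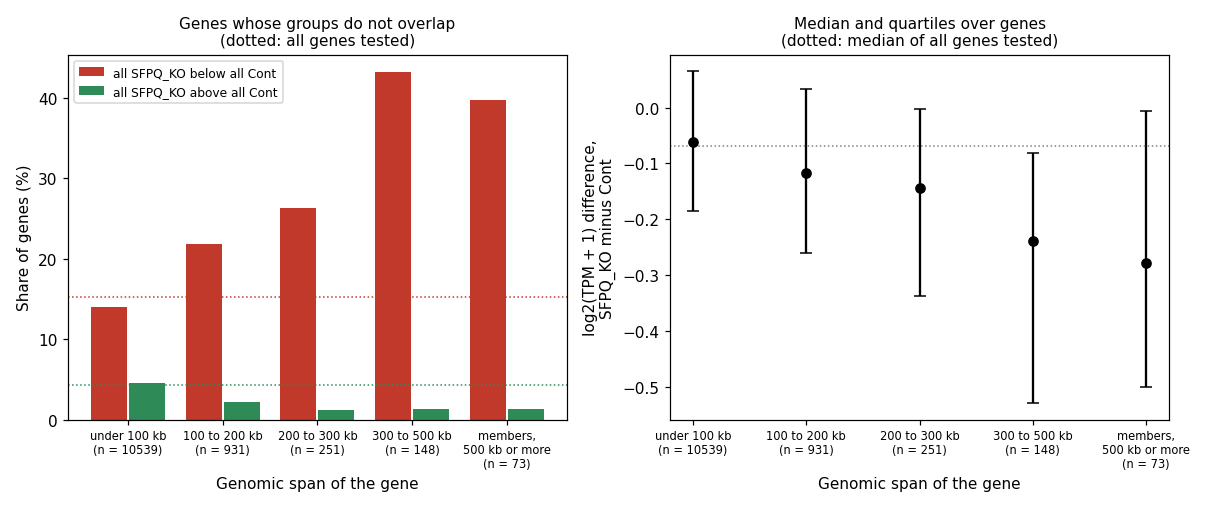
Left, the share of genes with all SFPQ_KO libraries below, or above, all Cont libraries by genomic span, with the shares of all genes tested dotted; right, the median and quartiles of the log2(TPM + 1) difference, SFPQ_KO minus Cont. The share below is 14.04% under 100 kb, 43.2% at 300 to 500 kb and 39.7% in the 73 genes of 500 kb or more.

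Across libraries, the median of the 73 genes relative to the Cont mean was −0.23, −0.33 and −0.39 in SFPQ_KO and −0.07, 0.18 and −0.04 in Cont, against −0.05, −0.07 and −0.08 in SFPQ_KO and −0.06, 0.05 and 0.01 in Cont over all genes tested. Cont replicate 2 was the highest control library for 45 of the 73 genes and SFPQ_KO replicate 3 the lowest knockout library for 36. Without Cont replicate 2 the median was −0.22, 32 genes were apart and lower and 4 apart and higher. Leaving a library out can raise such counts but not lower them. The number of these genes below 1 TPM was 7, 5 and 12 in the SFPQ_KO libraries and 5, 0 and 3 in the Cont libraries. Genes with a mean TPM of at least 10 were apart and lower in 7 of 22 cases (median −0.21), and the others in 22 of 51. The share over all genes tested was 15.3%.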

How the data were processed

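The authors deposited TPM for each RefSeq accession in 6 libraries. The submitters' processing notes name the aligner STAR 2.4.1d and the build mm10. The counter, its annotation and its strand setting were not given in the sources used here. Because TPM keeps no depth, count models and counting intervals were not used. Of 34671 accessions, 30822 were named through a RefSeq table of GRCm38.p6 and 103 through GENCODE, and the other 3746 (10.8%) kept their accession as name. Sums gave 34656 genes, of which 12461 reached a TPM of 1 in 3 or more libraries and entered the tests.

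Groups were taken from the library titles. SFPQ_KO was compared with Cont by limma 3.58.1 in R 4.3.3 on log2(TPM + 1), with intensity trend, no block, a 2-sided moderated test and Benjamini-Hochberg adjustment over all genes tested at 0.05. This scale understates the change of low genes. An exact permutation of 3 against 3 libraries cannot give a p below 0.1, so groups are called apart where all libraries of 1 group lie below all of the other. The fit was tested on simulated data. Spans and coordinates, counted from 1, are those of the RefSeq table, and the spans of deposited transcripts come from GENCODE. Tables were made with pandas 2.3.3 and plots with matplotlib 3.10.9 under Python 3.11.15.

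The genes, the role lists and the tests were chosen with earlier results of these data known. The text names up to 14 genes apart and lower by size of difference, up to 10 with the highest TPM among those above the median of all genes that were not lower, those apart and higher, up to 2 per role list by TPM, and the genes nearest to the limits. Some genes that this rule names are not reported here. Genes named beyond these were chosen after their values were seen. Alternatives covered pseudocount, filter, scaling, moderation, the thresholds, leaving out each library, a replicate block, the 12 genes put back and curated accessions alone. Spans of the deposited transcript and shared loci counted once were added after seeing the data. A planned test of accession usage within genes was not run, since 14 genes had more than 1 accession and only 1 of them, Snhg14, was of this set.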

Additional observations from a re-analysis of the deposited data

How the results depend on the processing

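The 29 genes apart and lower all had a difference below 0 in the alternatives that tested them. For a changed pseudocount, filter, moderation or block, or a library left out, non-overlapping groups fix this in advance. Only a change of scaling could move these 29 genes. Of them 28 were apart after median-of-ratios scaling (median over the set −0.22) and 26 after quantile normalization (−0.18). With a mean TPM of at least 5 there were 15, at a span of at least 400 kb 57 and at 700 kb 13. Genes apart and higher were 2 with no filter and 0 at 700 kb. With single libraries left out, genes apart and lower ran from 29 to 37 and apart and higher from 1 to 4. Leaving a library out cannot lower these counts. The median then ran from −0.32 to −0.22. The median was −0.16 with a pseudocount of 5 and −0.018 with no filter, where most added genes are near 0 TPM. Over all genes the test called 2 without trend, 7 with a mean TPM of at least 5, 13 with a pseudocount of 5 and 28 at an adjusted p under 0.1, and of the set 1 at the last of these. The cause of these shifts was not tested. Same-numbered libraries had correlations of −0.26, −0.25 and 0.05, so the numbers do not pair them. The replicate block called 0 genes, with 25 of the set at an unadjusted p under 0.05. Of 39 named genes 0 passed the threshold in any alternative, and 11 with overlapping groups and differences near 0 changed sign. With single libraries left out these ran from −0.029 to 0.23 for Gm38667, −0.030 to 0.23 for Gm37013, −0.029 to 0.23 for Gm38666, −0.16 to 0.038 for Pard3, −0.11 to 0.45 for Frmd4a, −0.18 to 0.27 for Ptprk, −0.15 to 0.099 for Adamtsl1, −0.14 to 0.28 for Syne1, −0.19 to 0.19 for Sema6d, −0.37 to 0.17 for Thsd4 and −0.055 to 0.093 for Robo1. Median-of-ratios scaling gave 0.012 for Pard3, 0.048 for Adamtsl1 and 0.061 for Sema6d, quantile normalization 0.083 for Adamtsl1 and 0.089 for Sema6d, and a pseudocount of 5 gave 0.0030 for Sema6d and −3.7e-05 for Robo1. TPM holds no depth, so the precision of low genes such as Fhit and Gpc6 is unknown.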

Other observations

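Most genes of this length did not reach the TPM floor in these cultures. Of the 217 in the deposited values, 132 did not reach the TPM floor, 43 were listed at 0 in all 6 libraries and 89, these included, stayed below 0.1 TPM in each. Lrp1b, a giant receptor of the LDL receptor family, and the channel subunit Dpp10 were among those listed at 0. Ctnna3, an alpha-catenin of 1574 kb, lay just under the floor at 0.835, 0.124 and 0.323 TPM in SFPQ_KO and 1.37, 1.48 and 0.542 TPM in Cont, with overlapping groups. The transcription factor Camta1 was at 0.531, 0.529 and 0.590 TPM in SFPQ_KO and 1.05, 0.928 and 1.31 TPM in Cont, with groups apart. Robo2, a relative of Robo1, was at 0.672, 0.616 and 0.564 TPM in SFPQ_KO and 0.956, 1.65 and 0.669 TPM in Cont, where Cont replicate 3 fell between SFPQ_KO libraries. These genes were chosen after their values were seen and did not enter the tests. None of the 73 genes lay on chromosome X, where Dmd and Fgf13 had been set aside.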
